A study of Homo sapiens with 4 samples.

Results

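The transcripts of 53 genes that sense and repair DNA breaks and crosslinks were followed in NCI-H838 human lung cancer cells in which Cas9 was switched on to cut MIB1. The genes were taken from a list of break sensing, homologous recombination, Fanconi, end joining and mismatch repair factors. The rule for choosing them uses no expression value, but the list was made with earlier results of these data known. All 53 were found among the 58302 genes of the deposited tables, and 52 had enough reads to be tested among 16181 genes. In short, no member passed the main test, which did not pair samples by replicate number. In it 41 of the 52 had a fitted log2 fold change below 0 with doxycycline (dox). The differences were small, with a median log2 fold change of -0.12. With the replicate number in the fit, 4 members had a limma adjusted p of at most 0.05, all lower with dox. In that fit 7.13% of all genes did so in either direction.

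The cells (MIB1-iKO) carry an integrated construct with a guide to MIB1 and a Cas9 gene that dox turns on. The methods describe them as isolated from single cells by dilution, so they represent clonal cells of a single line. RNA was sequenced at day 3 from 2 samples without dox ("no dox") and 2 samples kept in 0.5 µg/mL dox ("dox"), all of them MIB1-iKO cells under basal BMP signaling. The study calls the samples of a group biological replicates, but the labels do not say whether they came from separate cultures, and p-values measure the spread between these samples. No sample with dox but without a cut is part of the comparison, so exposure to dox, cutting by Cas9 and loss of MIB1 cannot be told apart.

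Cells repair a broken chromosome by several routes. In end joining the Ku pair binds the ends and a ligase rejoins them, in any phase of the cell cycle. In homologous recombination nucleases trim the ends and the BRCA proteins prepare them to copy the sister chromatid, so this route works in cells that are replicating or have replicated their DNA. The Fanconi proteins detect crosslinks that stall a replication fork and pass the lesion on to recombination. Many of the recombination and Fanconi genes are transcribed with the S phase genes under E2F factors, whereas sensors and checkpoint kinases are mostly switched on by phosphorylation and not by new RNA. In a bulk sample, fewer cells in a given phase and less RNA per cell cannot be told apart.

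The libraries held 24398411 and 21207419 counted reads in the no dox group and 15943025 and 17048990 in the dox group. For MIB1, the gene cut by Cas9, 598 and 588 reads were counted without dox, compared with 90 and 59 under dox. The fitted difference was -2.58 ± 0.23 on the log2 scale (SE, limma adjusted p = 0.000375), in the direction the labels give. Of 6 epithelial markers 5 had at least 10 reads in every library, and their summed level was 116 and 125 RPKM (reads per kilobase of gene model, scaled by depth) without dox and 103 and 107 RPKM with dox, with KRT19 listed at 0 in every library. Summed levels were 2.04 to 2.60 RPKM over 6 fibroblast markers, 4.66 to 5.18 RPKM over 6 leukocyte markers and 0.0536 to 0.151 RPKM over 5 endothelial markers, with COL1A2, PTPRC, CD68 and KDR listed at 0 throughout. The markers did not move together: KRT18 and KRT8 had log2 fold changes of -0.41 and -0.34 (limma adjusted p = 0.339 and 0.362), while the other 3 of the 5 tested were higher in both dox libraries. The part of these markers in the results was not tested.

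Between genes, the members covered a wide range of levels. The Ku subunits XRCC5 and XRCC6 stood first with mean RPKM of 231 and 141 over the 4 libraries. CHEK2, a checkpoint kinase, followed at 40.2 RPKM, then NBN of the MRN break sensor at 39.4 RPKM and RAD51AP1, which helps DNA strands to pair, at 35.7 RPKM. The libraries of these last 3 genes overlapped, so their order is not resolved. RBBP8 (35.1 RPKM), XRCC4 and FANCI (28.8 RPKM) came next. In all, 10 members were above 20 RPKM, 36 lay between 1 and 20 RPKM, and 7 were below 1 RPKM. The lowest were FANCF at 0.0586 RPKM, the nuclease scaffold SLX4 at 0.230 RPKM and ATRIP, the partner of the kinase ATR, at 0.509 RPKM. FANCF, a subunit of the Fanconi core complex, counted 8 and 2 reads without dox, compared with 7 and 2 under dox, and was too low to be tested. The members together took 0.315% and 0.328% of all reads without dox and 0.283% and 0.316% with dox, so the no dox replicate 1 and the dox replicate 2 were nearly alike in this share.

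**Figure D1:**
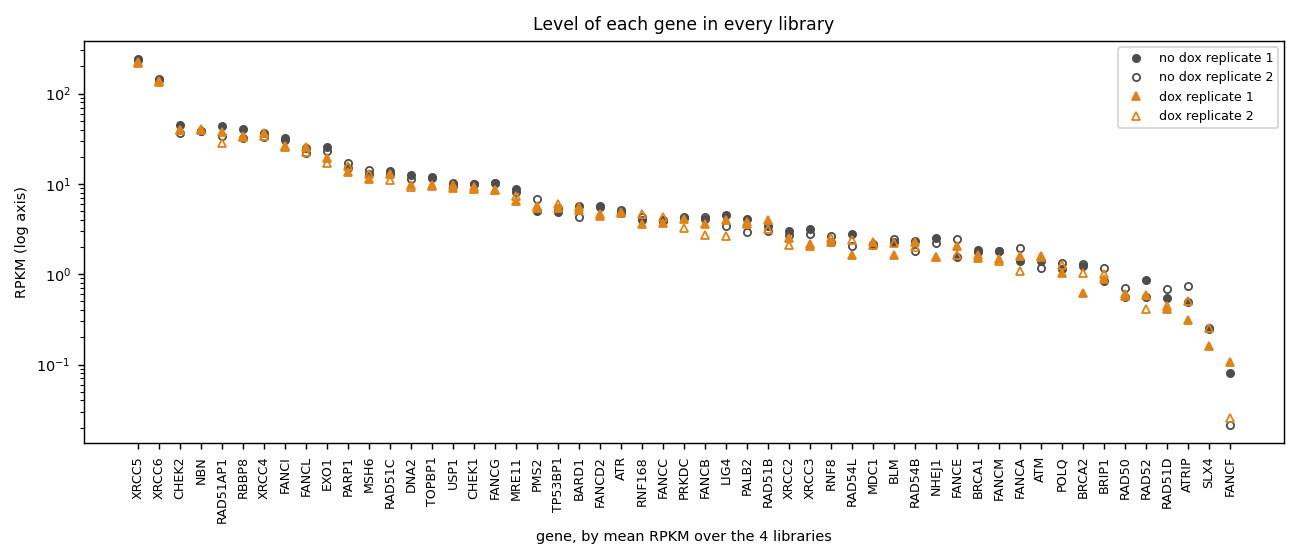
Level of each of the 53 genes in the 4 libraries, in RPKM on a log axis, ordered by mean RPKM over the 4 libraries, with each point a library coloured by group. XRCC5 and XRCC6 lie near 231 and 141 RPKM and FANCF near 0.0586 RPKM, and for most genes the points of both groups lie close together.

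The members were then compared between dox and no dox by limma on voom-weighted, quantile-normalised counts. Calls required a difference of at least 2-fold together with a Benjamini-Hochberg adjusted p no higher than 0.05. No member was called, against 0.0371% of all genes tested, and none had an adjusted p of at most 0.05 alone, against 0.068% of all genes. The lowest adjusted p of a member was 0.317. By edgeR and by DESeq2 no member reached an adjusted p of 0.05 either. At an unadjusted p under 0.05, limma gave 7 members lower with dox, which is 13.5% of those tested against 4.59% of all genes, and 1 member higher (ATM) against 4.68%. The 7 were EXO1, DNA2, BRCA2 and XRCC3 of homologous recombination, FANCD2 and FANCI of the Fanconi pathway and NHEJ1 of end joining. Under the same rule edgeR gave 9 members lower, against 4.83% of all genes, and 0 higher. DESeq2 gave 5 lower, against 2.97% of all genes, and 0 higher.

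The sign of the differences leaned one way. Fitted log2 fold changes were below 0 in 41 of 52 members (78.8%), compared with 50.1% of all genes. The median log2 fold change was -0.12 among members and -0.00 among all genes. On the normalised scale, both dox libraries lay below both no dox libraries in 19 members (36.5%, against 19.1% of all genes) and above them in 1 member (against 19.5%). Overlap of the groups is given below on this scale unless RPKM is named. For 46 of the 52 members the 95% interval of the difference lay within a 2-fold change in either direction, so a larger change than that was outside the interval. The exceptions were ATRIP, BRCA2, RAD51D, RAD52, SLX4 and NHEJ1. The members are not replicates of each other, and no test was made over the list.

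**Figure D2:**
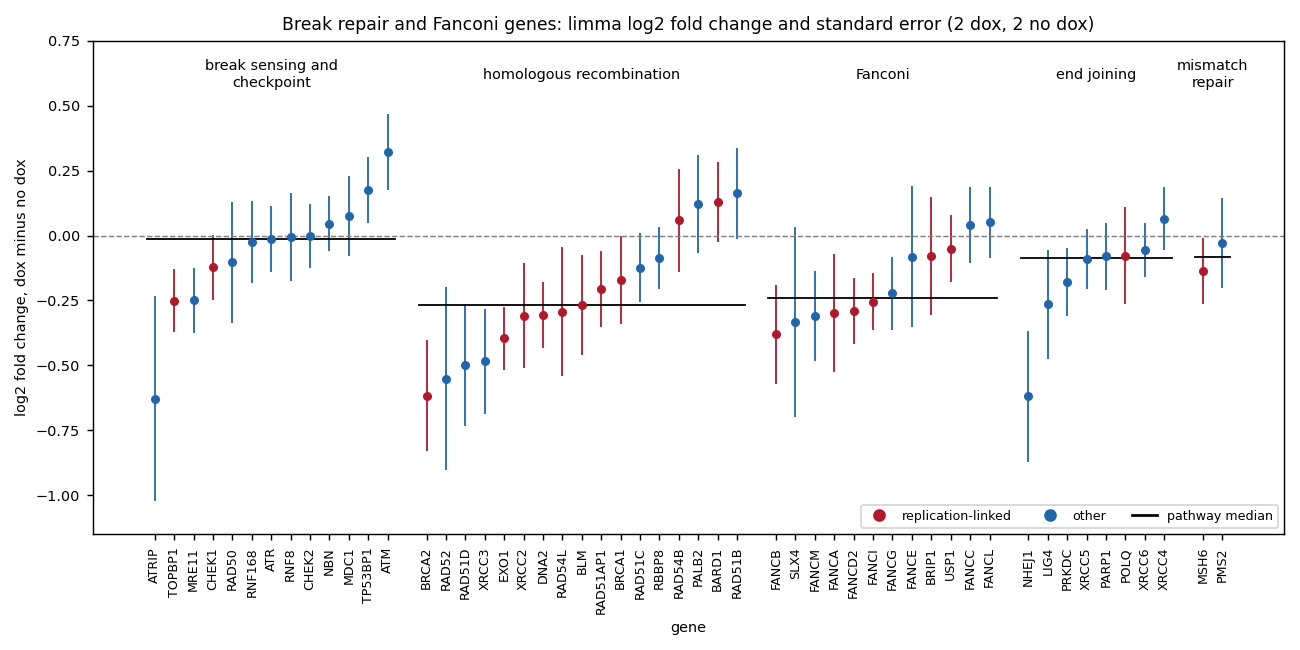
Log2 fold change (dox minus no dox) of the 52 genes tested, with limma standard errors as bars, grouped by pathway. BRCA2 and NHEJ1 lie at -0.62 and ATM at 0.32. None of the genes had a limma adjusted p of at most 0.05 in this fit, which did not use the replicate number.

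Break sensing and checkpoint genes had 9 of 13 below 0 and a median of -0.01. ATM, the kinase that starts the signal from double strand breaks, had 1.39 and 1.16 RPKM without dox and 1.54 and 1.59 RPKM with dox. Both dox libraries were higher. The difference was 0.32 ± 0.15 on the log2 scale (SE, limma adjusted p = 0.527), and ATM was the single member higher at an unadjusted p under 0.05. ATM did not pass that threshold by edgeR or by DESeq2. ATR, the kinase that answers stalled forks, stood at 5.13 and 4.77 RPKM without dox and 4.83 and 4.79 RPKM with dox. The groups overlapped and the log2 fold change was -0.01 ± 0.13 (limma adjusted p = 0.987). TOPBP1, which activates ATR, had 11.6 and 11.8 RPKM without dox and 9.53 and 9.79 RPKM with dox. Both dox libraries were lower, with a log2 difference of -0.25 ± 0.12 (limma adjusted p = 0.550).

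The other sensors lay on both sides of 0. MRE11, the nuclease of the MRN sensor, differed by -0.25 on the log2 scale with dox lower in both libraries, NBN by 0.05 and RAD50 by -0.10. ATRIP, with 33.0 reads a library on average, had the lowest value of all members tested, -0.63 ± 0.39 (limma adjusted p = 0.669), and its groups overlapped. The checkpoint kinases CHEK1 and CHEK2 differed by -0.12 and -0.00. Of the proteins that mark and read the chromatin around a break, TP53BP1 stood at 0.17, MDC1 at 0.07, RNF8 at -0.00 and RNF168 at -0.02, and the libraries of all 4 overlapped between groups. None of these genes reached an unadjusted p under 0.05. RAD50 and ATRIP shared 76.9% and 26.7% of their exon bases with other coding genes, mostly on the same strand, and TP53BP1 shared 28.8% on the opposite strand, so how reads there were assigned is uncertain.

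Homologous recombination genes had a median of -0.27, with 13 of 17 below 0, and a median of -0.10 without no dox replicate 1. At an unadjusted p under 0.05, 4 were lower (23.5%, against 4.59% of all genes) and 0 higher, and in 9 (52.9%, against 19.1%) both dox libraries were below both no dox libraries. End resection came first in this pathway. EXO1, the exonuclease that trims broken ends over long stretches, stood at 25.6 and 23.3 RPKM without dox and 19.4 and 17.0 RPKM with dox. The groups did not overlap, and its log2 fold change of -0.40 ± 0.12 carried the lowest adjusted p of any member (limma, 0.317). DNA2, the nuclease of the parallel resection route, had 12.6 and 11.4 RPKM without dox against 9.68 and 9.28 RPKM with dox. The groups again did not overlap, with a log2 difference of -0.31 ± 0.13 (limma adjusted p = 0.470). RBBP8, which encodes CtIP and starts resection, had 40.5 and 32.6 RPKM without dox and 33.4 and 34.0 RPKM with dox, so 1 no dox library was high and the groups overlapped. Its log2 fold change was -0.09 ± 0.12 (limma adjusted p = 0.878). RBBP8 lies on chromosome 18, 927 kb from MIB1, and is the member that shares a chromosome with the cut gene.

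The BRCA core did not move together. BRCA2, which acts after resection to prepare strand exchange, had 1.24 and 1.28 RPKM without dox and 0.619 and 1.04 RPKM with dox. The groups did not overlap, but the dox libraries differed from each other more than the no dox libraries did, and the log2 difference of -0.62 ± 0.21 (limma adjusted p = 0.383) was among the largest of all members. The value was -0.24 without dox replicate 1 and -1.01 without dox replicate 2. BRCA1, which directs resection and recombination, had 1.86 and 1.74 RPKM without dox and 1.52 and 1.62 RPKM with dox. Both dox libraries were lower, by -0.17 ± 0.17 on the log2 scale (limma adjusted p = 0.804). BARD1, the partner of BRCA1, and PALB2, which links BRCA1 with BRCA2, had log2 fold changes of 0.13 and 0.12, and the groups overlapped for each.

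XRCC3, which assists strand exchange, had 3.18 and 2.78 RPKM without dox against 2.05 and 2.17 RPKM with dox. Both dox libraries were lower, by -0.48 ± 0.20 on the log2 scale (limma adjusted p = 0.472). However, 76.7% of its exon bases overlap KLC1 on the opposite strand, and the counting does not say whether strand was used. RAD51B had 3.46 and 3.00 RPKM without dox and 3.96 and 3.20 RPKM with dox, with overlapping groups and a log2 difference of 0.16 ± 0.18 (limma adjusted p = 0.827). RAD51D at -0.50 and XRCC2 at -0.31 were lower in both dox libraries, and RAD51C at -0.12 overlapped. The strand exchange factors RAD51AP1 at -0.21, RAD54L at -0.29 and RAD54B at 0.06 overlapped between groups, whereas RAD52, with a mean of 0.605 RPKM, stood at -0.55 without overlap, although its libraries overlapped in RPKM. RAD54B shares 66.0% of its exon bases with another coding gene. BLM, a helicase of resection and of the dissolution of joint molecules, was lower in both dox libraries at -0.27.

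The Fanconi genes had a median log2 fold change of -0.24 and 10 of 12 below 0. FANCD2 and FANCI form the pair that is ubiquitinated at a crosslink, and this pair was lower in both dox libraries. FANCD2 had 5.63 and 5.58 RPKM without dox and 4.36 and 4.59 RPKM with dox, and the difference was -0.29 ± 0.13 on the log2 scale (limma adjusted p = 0.507). FANCI had 32.4 and 30.6 RPKM without dox and 25.6 and 26.5 RPKM with dox, and differed by -0.25 ± 0.11 on the log2 scale (limma adjusted p = 0.500). For each gene the RPKM of the replicates differed by less than those of the groups did. Of the core complex that attaches ubiquitin, FANCB had 4.08 and 4.26 RPKM without dox and 3.63 and 2.71 RPKM with dox. The groups did not overlap, and the log2 fold change was -0.38 ± 0.19 (limma adjusted p = 0.574). FANCL, the ubiquitin ligase of the complex, stood at 25.2 and 22.2 RPKM without dox and 25.7 and 22.3 RPKM with dox, with overlap and a log2 difference of 0.05 ± 0.14 (limma adjusted p = 0.942). FANCM and FANCG were lower in both dox libraries, by -0.31 and -0.22 on the log2 scale, while FANCA (-0.30), FANCC (0.04) and FANCE (-0.08) overlapped. USP1, the enzyme that takes the ubiquitin off, differed by -0.05, the helicase BRIP1 by -0.08 and SLX4 by -0.33, all with overlapping groups.

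**Figure D3:**
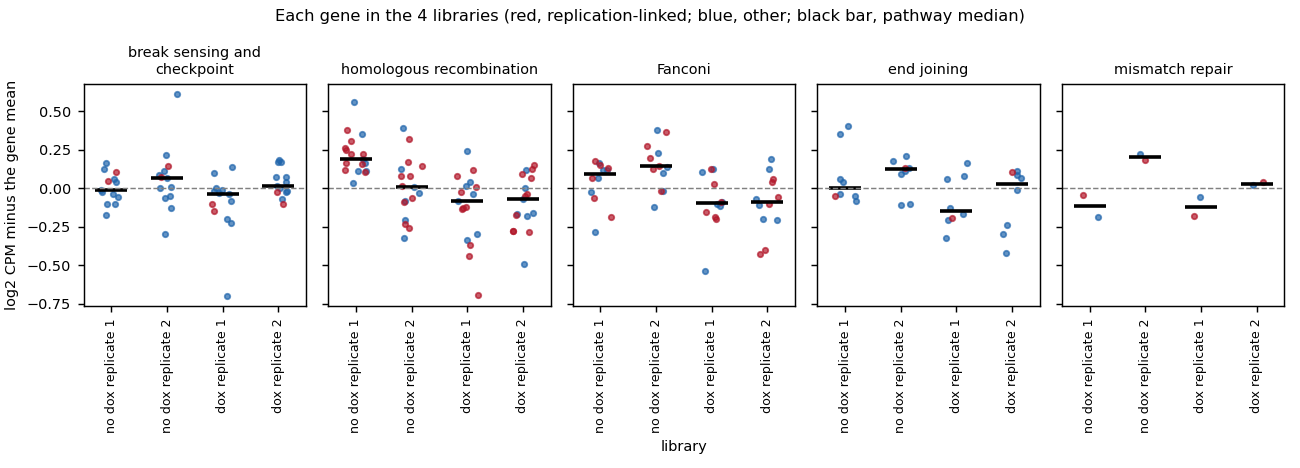
Value of each gene in each library, as log2 CPM minus the mean of that gene over the 4 libraries, by pathway, with each point a gene and black bars the pathway medians. Homologous recombination has medians of 0.19 and 0.01 without dox and -0.08 and -0.07 with dox, and the Fanconi genes 0.09 and 0.14 without dox and -0.10 and -0.09 with dox.

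End joining genes had a median of -0.09, with 7 of 8 below 0. XRCC5, the larger Ku subunit, had 237 and 241 RPKM without dox and 220 and 226 RPKM with dox. Both dox libraries were lower in RPKM, whereas after quantile normalisation the groups overlapped and the log2 fold change was -0.09 ± 0.12 (limma adjusted p = 0.863). XRCC6, the smaller Ku subunit, had 146 and 142 RPKM without dox and 139 and 136 RPKM with dox. Here too the RPKM of both dox libraries were lower, whereas the normalised values overlapped. The log2 fold change was -0.06 ± 0.10 (limma adjusted p = 0.914). PRKDC, the kinase that Ku recruits, had 4.16 and 4.26 RPKM without dox and 4.05 and 3.28 RPKM with dox, and its log2 fold change was -0.18 ± 0.13 (limma adjusted p = 0.724). The dox libraries were the lower pair, and most of the gap came from dox replicate 2.

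XRCC4, the scaffold of the ligation step, stood at 36.7 and 32.6 RPKM without dox and 37.0 and 33.8 RPKM with dox, with overlap and a log2 difference of 0.07 ± 0.12 (limma adjusted p = 0.915). NHEJ1, which encodes the XLF factor that bridges the ends, had 2.52 and 2.22 RPKM without dox against 1.56 and 1.55 RPKM with dox. The groups did not overlap and the log2 difference of -0.62 ± 0.25 (limma adjusted p = 0.463) was the lowest in this pathway. It was counted with 124 and 102 reads in the no dox group and 50 and 59 in the dox group, and shares 25.9% of its exon bases with other annotated genes. LIG4, the ligase, differed by -0.26 with overlap. PARP1, which signals breaks and opens the alternative route, had 15.2 and 16.9 RPKM without dox and 13.7 and 15.8 RPKM with dox, and its groups overlapped, with a log2 difference of -0.08 ± 0.13 (limma adjusted p = 0.897). POLQ, the polymerase of that route, differed by -0.08 as well.

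For mismatch repair, the list held a partner of each of the 2 recognition and excision complexes. MSH6, which recognises mismatches, had 12.7 and 14.3 RPKM without dox and 11.3 and 12.7 RPKM with dox, and its log2 fold change was -0.14 ± 0.13 (limma adjusted p = 0.785). PMS2, the endonuclease of excision, had 5.04 and 6.77 RPKM without dox and 5.47 and 5.76 RPKM with dox, with a log2 difference of -0.03 ± 0.17 (limma adjusted p = 0.978). The groups overlapped for each gene. PMS2 has near-identical copies, of which PMS2P1 had 328 to 431 reads in each library, so its counts are uncertain. MSH6 shares 24.2% of its exon bases with other annotated genes.

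The members were also split by whether their RNA is known to rise with DNA replication. The 20 replication-linked members, among them EXO1, BRCA2, FANCD2 and FANCI, had a median of -0.25, with 18 below 0, 5 lower at an unadjusted p under 0.05 (25.0%, against 4.59% of all genes) and 0 higher. Both dox libraries were below both no dox libraries in 11 of them (55.0%, against 19.1%). The other 32 members that were tested had a median of -0.08, with 23 below 0, 2 lower (6.25%) and 1 higher (3.12%, against 4.68% of all genes) at an unadjusted p under 0.05. Of these 32, 8 were lower without overlap (25.0%, against 19.1% of all genes). Only 1 was higher without overlap, against 19.5% of all genes. The share of the 32 below 0 was 71.9%, against 50.1% of all genes. Over the libraries the replication-linked median, centred on each gene, was 0.14 and 0.13 without dox and -0.13 and -0.04 with dox. The split is a description, since it was made with results of these data known.

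Sets of genes around the members were read in the same fit. The 40 replication fork genes, the helicase, polymerase and clamp loader subunits that copy DNA, had a median of -0.33, with 39 below 0. At an unadjusted p under 0.05, 22 of these genes were lower (55.0%, against 4.59% of all genes) and 0 higher (against 4.68%). None of them had an adjusted p of 0.05 or below by limma. MCM3, a subunit of the replicative helicase, had 1551 and 1541 reads without dox, compared with 653 and 775 under dox (log2 fold change -0.64, limma adjusted p = 0.126), and GINS2, which activates that helicase, 1524 and 1245 without dox and 622 and 647 with dox (log2 fold change -0.64, limma adjusted p = 0.154). Both genes were lower in both dox libraries. The 62 other break repair genes had a median of -0.04, with 36 below 0. At an unadjusted p under 0.05, 5 were lower (8.06%, against 4.59% of all genes) and 2 higher (3.23%, against 4.68%). The 2 genes with the smallest p were FIGNL1, a recombination factor (481 and 439 reads in no dox, 201 and 185 in dox, log2 fold change -0.79, limma adjusted p = 0.166), and TIPIN, a fork protection factor (752 and 548 reads in no dox, 321 and 293 in dox, log2 fold change -0.60, limma adjusted p = 0.305).

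Excision repair, which mends damaged bases without a double strand break, showed a median of -0.03 over 29 genes, with 16 below 0. The 2 genes with the smallest p were the glycosylases UNG (log2 fold change -0.26, limma adjusted p = 0.538) and MUTYH (log2 fold change -0.36, limma adjusted p = 0.629). The p53 target list, which DNA damage often turns on, had a median of 0.03 over the 22 genes tested, with 14 above 0, and 2 higher (9.09%, against 4.68% of all genes) and 0 lower at an unadjusted p under 0.05. Its median was -0.0286 without no dox replicate 1. The 2 genes with the smallest p were SESN1 and ZMAT3, and the lowest value, named after the values were seen, was -0.42 in BTG2. SESN1 had 668 and 669 reads in no dox and 525 and 683 in dox libraries, and after scaling differed by 0.32 on the log2 scale (limma adjusted p = 0.468). ZMAT3 had 226 and 243 reads in no dox and 206 and 231 in dox libraries, and differed by 0.38 on the log2 scale (limma adjusted p = 0.531).

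**Figure D4:**
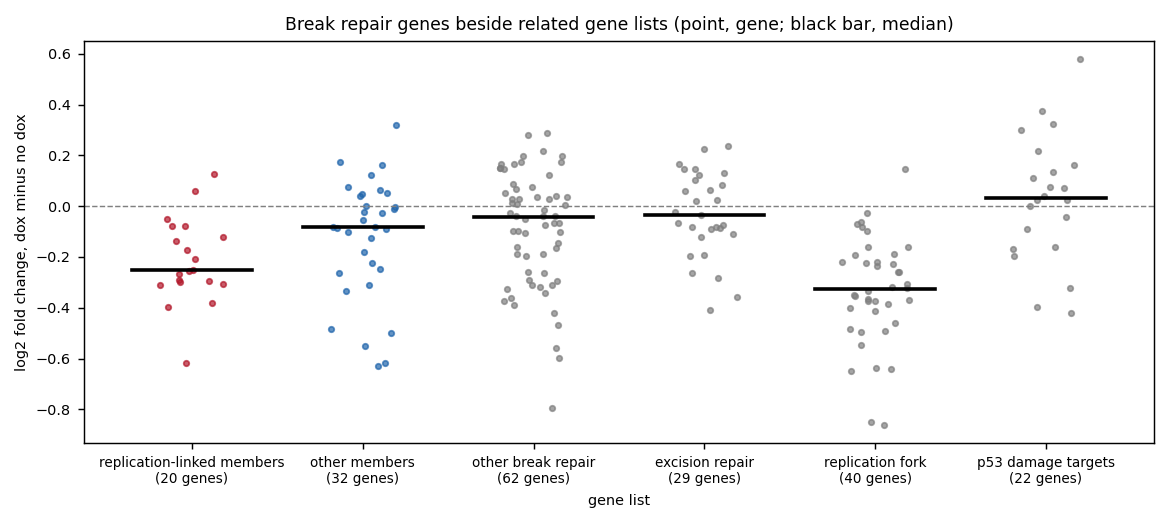
Log2 fold change (dox minus no dox) of every gene tested in the replication-linked members, the other members and the 4 surrounding gene lists, with each point a gene and bars the medians. The medians are -0.25, -0.08, -0.04 for other break repair, -0.03 for excision repair, -0.33 for replication fork genes and 0.03 for p53 targets.

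Promoter sequence was examined because many replication-linked genes are known E2F targets. In the RefSeq windows of 250 bases before to 50 bases after a gene start (GRCh38.p14), 47 of 53 members had a window, and these were searched on both strands for the E2F motif in the forms TTTCCCGC, TTTCGCGC, TTTGCCGC and TTTGGCGC, which share their last 3 letters. A match was found in 9 members (19.1%), compared with 3.99% of 27305 genes. The motif was in 6 of 17 replication-linked members, in 3 of 30 others and in 17 of 35 replication fork genes. The match describes letters in the window and not a bound site. A shorter form with 1 T fewer at its start, chosen after seeing the data, was in 26 members (55.3%, against 15.3% of all genes). The matches of the 6 replication-linked genes are given to show how the motif sits at each gene start. Each sequence is written on the gene's strand from 5′ to 3′ with the motif, or its reverse complement, in capitals.
EXO1 (chr1:241848197-241848226, plus strand): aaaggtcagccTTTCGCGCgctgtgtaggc
TOPBP1 (chr3:133661930-133661959, minus strand): ccgcgcggttgGCGCGAAAgtcggttcccg
FANCD2 (chr3:10026424-10026453, plus strand): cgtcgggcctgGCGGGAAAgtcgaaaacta
FANCA (chr16:89816801-89816830, minus strand): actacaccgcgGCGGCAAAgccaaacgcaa
XRCC2 (chr7:152676102-152676131, minus strand): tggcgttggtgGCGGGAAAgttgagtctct
MSH6 (chr2:47783137-47783166, plus strand): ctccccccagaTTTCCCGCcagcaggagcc

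Counting the RefSeq start as base 1, the first base of the motif was base 5 in EXO1, 4 in MSH6 and 22 in XRCC2. It lay before that start in TOPBP1 (-7), FANCD2 (-2) and FANCA (-172). By GENCODE, however, 27 of the 30 bases shown for EXO1 lie in annotated exons. For TOPBP1, FANCD2, FANCA, XRCC2 and MSH6 all 30 do, so the position depends on the start used. EXO1, TOPBP1, FANCD2 and XRCC2 were lower in both dox libraries, whereas FANCA and MSH6 overlapped. FANCC, PMS2 and XRCC6, which hold the motif and are not on the replication-linked list, had log2 fold changes of 0.04, -0.03 and -0.06. BRCA2, XRCC3 and NHEJ1, which were lower at an unadjusted p under 0.05, had none of these 4 forms in their windows. NBN, DNA2, RAD54B, FANCI, XRCC5 and PRKDC had no window.

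The pathway medians were computed again with each library left out in turn. The lone remaining library of a group was then assumed to vary like the other group. The homologous recombination median ranged from -0.36 to -0.10 and the Fanconi median from -0.29 to -0.16, below 0 in every case. The medians of break sensing (-0.09 to 0.02), end joining (-0.18 to 0.03) and mismatch repair (-0.24 to 0.07) changed sign. Break sensing was above 0 with either dox replicate 1 or no dox replicate 2 left out, end joining without dox replicate 1, and mismatch repair without no dox replicate 2. Of the 22 named members, ATR, RBBP8, FANCL, XRCC5, XRCC6, XRCC4, PARP1 and PMS2 changed sign when a library was left out. ATR and RBBP8 did so without no dox replicate 1, XRCC4 without no dox replicate 2, and the other 5 when either dox replicate 1 or no dox replicate 2 was absent. By contrast, EXO1 stayed between -0.47 and -0.32, NHEJ1 between -0.70 and -0.52, and ATM between 0.18 and 0.46. Other named members kept their sign and moved further: FANCB ran from -0.59 without dox replicate 1 to -0.16 without dox replicate 2, PRKDC from -0.32 to -0.03 and RAD51B from 0.008 to 0.32 without the same libraries, MSH6 from -0.25 without no dox replicate 1 to -0.025 without dox replicate 1, and BRCA1 from -0.24 without no dox replicate 2 to -0.10 without no dox replicate 1. Leaving out no dox replicate 1 or dox replicate 1 gave medians over all members of -0.19 or -0.05. Counts of members by unadjusted p are not given for these fits, since 1 group then holds a single library. In a fit with the replicate number as a block, 4 members (EXO1, FANCI, BRCA2 and DNA2) had an adjusted p of at most 0.05 by limma, all lower with dox, where 3.56% of all genes were lower and 3.57% higher under that rule.

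**Figure D5:**
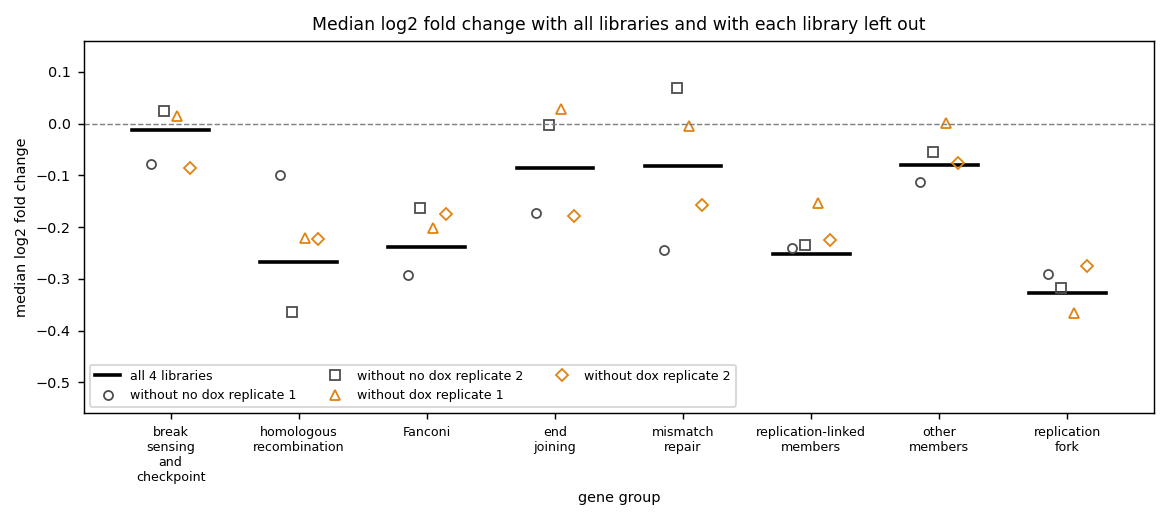
Median log2 fold change (dox minus no dox) of each pathway over all 4 libraries and with each library left out. Homologous recombination runs from -0.36 to -0.10 and the Fanconi genes from -0.29 to -0.16, both below 0 throughout, while end joining runs from -0.18 to 0.03.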

How the data were processed

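The sample labels gave the group and replicate number of each library. The methods state that reads aligning to ribosomal RNA were removed, that the rest were aligned to GRCh38 with GSNAP (at most 2 mismatches), and that the authors counted reads over gene exons with HTSeqGenie. The deposited counts are whole reads per gene, not normalised. The authors' deposited RPKM values carry a further scaling per sample. The kit used and the strand setting are not given in the sources used here. Symbols are those of GENCODE release 44. Counts were scaled by library size, quantile normalised and fitted with limma 3.58.1 (voom, filterByExpr of edgeR 4.0.16) in R 4.3.3, with Benjamini-Hochberg adjustment over 16181 genes. The scripts were tested on simulated data. Total counts were 15943025 to 24398411, and with 2 samples a group an exact permutation test of 1 gene cannot go below p = 0.333. Alternatives were edgeR, DESeq2 1.42.0, voom with TMM or library size only, other count filters, log2(RPKM + 0.1) and log2(RPKM + 1), a length trend, a replicate block and leaving out libraries. The members and lists were chosen with earlier results of these data known. The named members were those with an unadjusted p under 0.05, the extremes of each pathway with a mean of at least 50 reads, RBBP8 as the neighbour of MIB1, and the best known genes of each pathway. An item withheld for evaluation is not reported here.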

Additional observations from a re-analysis of the deposited data

How the results depend on the processing

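No member was called under any alternative, including an adjusted p of at most 0.1 with a 2-fold difference. In the main fit the log2 fold changes of members ran from -0.63 to 0.32. The 2-fold limit alone thus set the count to 0 there, whatever the p-values. With the replicate numbers as a block, 4 members reached an adjusted p of 0.05 by limma. In that fit 12 members were lower and 2 higher at an unadjusted p under 0.05, where 10.1% of all genes were lower. With the block 7.13% of all genes had a limma adjusted p of at most 0.05, against 0.068% without it. The labels do not say what the numbers stand for, so the numbers were not taken to pair the samples. The deviations of same-numbered samples correlated at 0.134 over genes. The chi-square per degree of freedom between libraries was nonetheless lowest for same-numbered libraries of different groups (8.26 and 8.18), against 9.34 and 13.1 within groups and 15.8 and 15.9 for differently numbered libraries. Counts of members lower or higher at an unadjusted p under 0.05 are not given without 1 library, since 1 group then holds a single library. The members higher at an unadjusted p under 0.05 went from 1 to 0 with edgeR, DESeq2 and voom with TMM or library size only. The number higher was also 0 with no count filter, the length trend removed and either RPKM scale. The median of all members ran from -0.188 to -0.0455 without 1 library, of break sensing from -0.0865 to 0.0233, of homologous recombination from -0.36 to -0.10, of Fanconi genes from -0.29 to -0.16, of end joining from -0.18 to 0.0282, of mismatch repair from -0.24 to 0.07, of replication-linked members from -0.24 to -0.15 and of other members from -0.11 to 0.000238. On log2(RPKM + 1) the Fanconi median was -0.14 and the replication-linked median -0.20, and with a mean of at least 50 reads the median of other members was -0.0559. Without 1 library the log2 fold change ran from -0.0658 to 0.0450 for ATR, -0.21 to 0.0413 for RBBP8, -0.0481 to 0.15 for FANCL, -0.24 to 0.0649 for XRCC5, -0.15 to 0.0394 for XRCC6, -0.0104 to 0.14 for XRCC4, -0.21 to 0.0437 for PARP1 and -0.24 to 0.16 for PMS2. The cause of these moves was not tested. The wider motif was in 26 members. Read numbers were lowest for FANCF, ATRIP, SLX4 and RAD52, with means under 50 reads.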
